A study of Mus musculus with 6 samples.

Results

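Islet macrophage marker genes were examined as a set of 9 genes, taken from the count table by symbol (Lyz1, Lyz2, Clec4n, C1qa, C1qb, C1qc, Cd68, Csf1r and Mrc1), of 24407 genes in all. All 9 passed the filter on low counts, which left 14539 genes for testing. The libraries were made from islets of Langerhans of C57BL/6 mice aged 70 weeks on regular chow. The LCS group carried an Lmna allele from which lamin C is made and lamin A is not, and its sample titles contain KIKI. The WT group was wild type. Each group had 3 libraries, and each library pooled the islets of 3 mice, so variation between single mice was not measured.

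Macrophages are resident immune cells of the islet that take up debris, secrete signals to endocrine and vascular cells and depend on the growth factor receptor encoded by Csf1r. Lyz1 and Lyz2 encode lysozymes, enzymes that cut bacterial cell walls; Lyz2 is the myeloid form and Lyz1 is best known from Paneth cells of the gut. C1qa, C1qb and C1qc encode the 3 chains of C1q, which starts the classical complement cascade and which macrophages secrete. Clec4n encodes dectin-2, a C-type lectin receptor for fungal mannans. Cd68 encodes a glycoprotein of the phagocyte lysosome. Mrc1 encodes the mannose receptor CD206, which in the mouse pancreas marks macrophages of the exocrine stroma more than those inside islets.

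The start of both lysozyme coding sequences, bases 1 to 300, is shown because their likeness limits how far counts of Lyz1 and Lyz2 can be told apart. Both come from the GENCODE M21 transcripts, and capitals mark the 20 bases of this stretch at which the genes differ.
Lyz1: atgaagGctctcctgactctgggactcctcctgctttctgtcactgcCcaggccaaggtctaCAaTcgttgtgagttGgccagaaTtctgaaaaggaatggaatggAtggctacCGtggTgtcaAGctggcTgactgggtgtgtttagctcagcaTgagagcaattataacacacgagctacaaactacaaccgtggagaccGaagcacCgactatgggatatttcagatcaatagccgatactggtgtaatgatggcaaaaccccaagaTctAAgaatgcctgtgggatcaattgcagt
Lyz2: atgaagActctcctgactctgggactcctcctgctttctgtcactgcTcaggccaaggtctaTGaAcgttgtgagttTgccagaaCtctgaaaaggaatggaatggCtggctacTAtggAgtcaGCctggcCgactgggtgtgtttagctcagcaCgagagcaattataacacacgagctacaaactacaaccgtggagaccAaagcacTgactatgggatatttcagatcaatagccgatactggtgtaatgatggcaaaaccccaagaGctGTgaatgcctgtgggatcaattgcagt
Over the whole coding sequence of 447 bases they differ at 22, an identity of 95.1%, and the longest stretch without a difference is 118 bases. Of all 50-base windows of the Lyz1 transcript 16.1% also occur in the Lyz2 transcript, and of all 100-base windows 2.06%. Counts of either gene alone are therefore uncertain, the read length not being given in the sources used here, and their sum is given as well.

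Totals were 41529670 to 68036676 counts per LCS library and 26123654 to 34483948 per WT library. The rows Rn45s, Lars2 and Mir6236, called the ribosomal rows here, took 52.3% to 54.1% of the LCS counts and 7.64% to 18.5% of the WT counts. This is a name for the rows, and the origin of their reads was not tested. Values below are CPM (counts scaled to a library of 1e6 counts, with TMM factors) unless a raw count is named, and fold changes are LCS over WT. The 9 genes together held 1989 to 4132 raw counts per library. As CPM of the counts outside the ribosomal rows, without TMM, this was 127.4, 127.3 and 135.1 in LCS replicates 1 to 3 and 109.5, 83.3 and 84.6 in WT replicates 1 to 3, and every LCS library lay above every WT library. As a share of all counts the order turned, with 58.4 to 62.3 CPM in LCS and 76.1 to 89.2 CPM in WT. C1qa alone held 43.4% of the summed raw counts in LCS and 40.8% in WT. Outside the ribosomal rows, the sum without Lyz1, Lyz2 and Mrc1 was 99.6, 98.5 and 117.4 CPM in LCS. In WT it was 98.6, 71.9 and 76.7 CPM, and the groups overlapped. In bulk islet RNA a different number of macrophages and a different amount of RNA per macrophage cannot be told apart.

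Of the 9 genes, 3 rose in LCS islets and none fell: both lysozyme genes and Clec4n (edgeR adjusted p under 0.05). Across all genes tested 2.06% were called higher and 0.144% lower by the same rule. The 3 C1q chains had positive fold changes that did not pass the test, and Cd68, Csf1r and Mrc1 had fold changes near or below 0 on the log2 scale. The groups did not overlap for 5 of the 9, all higher in LCS (Lyz1, Lyz2, Clec4n, C1qa and C1qb), against 14.6% of all genes tested. The median log2 fold change of the 9 was 0.64, against 0.01 for all genes tested. Protein-coding genes of 1000 to 2000 nt, the length class of all markers but Csf1r and Mrc1, had a median of 0.37. With the length offset described below, the median of the 9 was 0.16. The markers were chosen with earlier results of these data known. Whether the fold changes of these genes differ from one another was not tested.

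**Figure D1:**
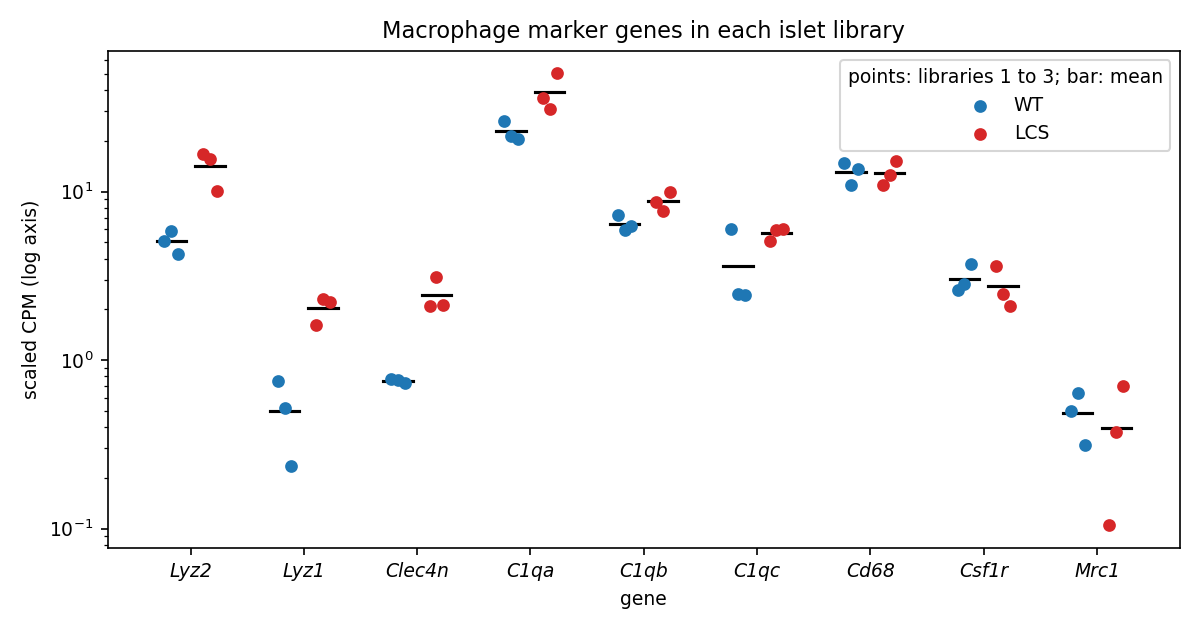
Scaled CPM (log axis) of the 9 macrophage marker genes by library, with blue points for WT, red points for LCS and a black bar at the mean of 3 libraries. Lyz2, Lyz1, Clec4n, C1qa and C1qb show no overlap between groups, while the points of C1qc, Cd68, Csf1r and Mrc1 overlap.

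Lyz2 stood at 16.7, 15.7 and 10.02 CPM in LCS replicates 1 to 3 and at 5.09, 5.85 and 4.28 CPM in WT replicates 1 to 3. The lowest LCS library was well above the highest WT library, and LCS replicate 3 was the lowest of its group. This was a 2.79-fold rise (log2 1.48, SE 0.23, edgeR adjusted p = 0.0142). Raw counts of Lyz2 were 314 to 799 per LCS library and 164 to 245 per WT library.

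Lyz1 was about an order of magnitude less abundant, with 46, 117 and 69 raw counts in LCS and 36, 21 and 9 in WT. These correspond to 1.61, 2.30 and 2.201 CPM in LCS and 0.749, 0.518 and 0.235 CPM in WT. The groups did not overlap, and WT replicate 3, at 9 counts, was the lowest library. The rise was 4.01-fold (log2 2.004, SE 0.42, edgeR adjusted p = 0.0416). Lyz1 had 0.0960, 0.146 and 0.220 counts per Lyz2 count in LCS and 0.147, 0.0886 and 0.0549 in WT, ranges that overlapped. With counts of both lysozymes summed, the log2 fold change was 1.54 (edgeR adjusted p = 0.00963).

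Clec4n had 2.098, 3.10 and 2.14 CPM in LCS and 0.769, 0.765 and 0.732 CPM in WT. The WT libraries lay close together, and all 3 LCS libraries lay above them. The rise was 3.24-fold (log2 1.70, SE 0.30, edgeR adjusted p = 0.0214), on raw counts of 60, 158 and 67 in LCS and 37, 31 and 28 in WT.

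These 3 calls depended on the libraries in the fit. Lyz2 lost its call without LCS replicate 1 (log2 1.37, edgeR adjusted p = 0.071) and kept it when any other single library was left out. Lyz1 and Clec4n kept theirs only without WT replicate 1 (edgeR adjusted p = 0.0051 and 0.00817). Without LCS replicates 1, 2 or 3 or WT replicates 2 or 3, the edgeR adjusted p of Lyz1 was 0.103, 0.0691, 0.151, 0.143 and 0.0925, and that of Clec4n 0.0618, 0.0518, 0.0643, 0.0945 and 0.071. The log2 fold changes stayed between 1.37 and 1.68 for Lyz2, 1.68 and 2.42 for Lyz1, and 1.51 and 1.82 for Clec4n. Over all genes tested, the number called higher went from 300 to 86 without LCS replicate 1, to 81 without LCS replicate 3, to 111 without WT replicate 2, to 138 without WT replicate 3 and to 1857 without WT replicate 1.

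**Figure D2:**
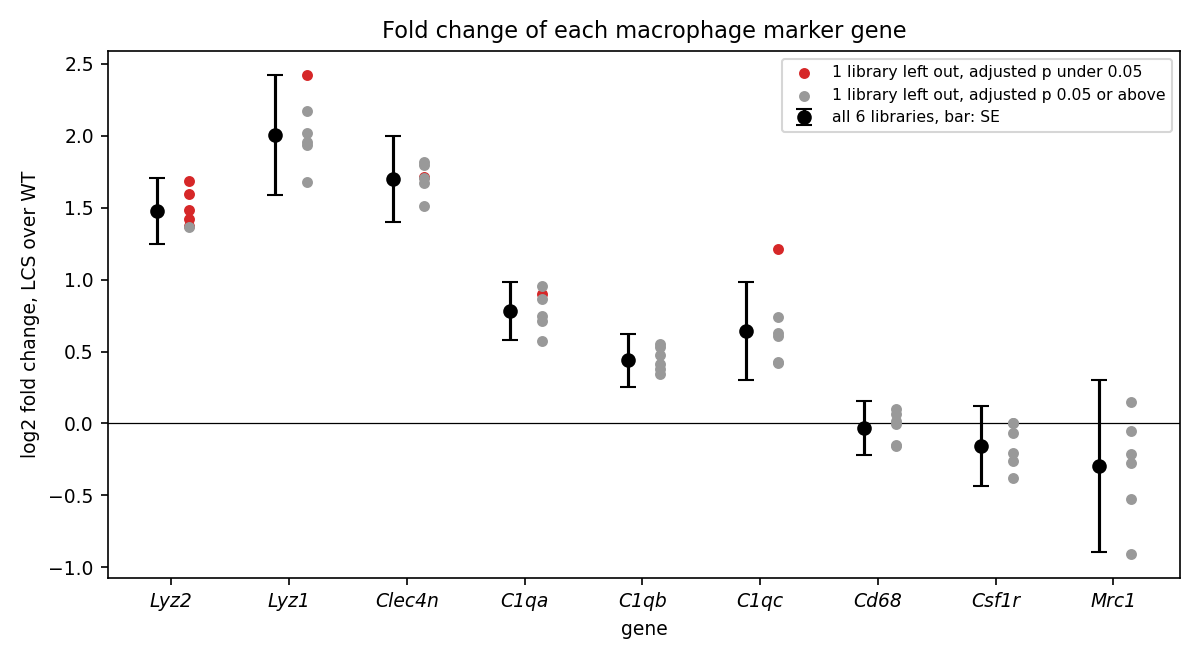
Log2 fold change (LCS over WT) of each marker gene with all 6 libraries (black, bar: SE) and with each library left out in turn (small points, red for an edgeR adjusted p below 0.05 and grey otherwise). The points for Lyz2 stay between 1.37 and 1.68 and are red in all but 1 fit, while those for Lyz1 and Clec4n are red in 1 fit each.

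Among the C1q chains, C1qa was the most abundant, at 36.0, 31.1 and 50.2 CPM in LCS and 26.2, 21.5 and 20.4 CPM in WT. The groups did not overlap, with LCS replicate 3 highest and WT replicate 1 the nearest of the controls. The log2 fold change was 0.78 (SE 0.20) and missed the threshold (edgeR adjusted p = 0.0713). C1qa was called by the DESeq2 Wald test (adjusted p = 0.0117), without the low-count filter (edgeR adjusted p = 0.0421) and without WT replicate 1 (edgeR adjusted p = 0.0144).

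C1qb was at 8.63, 7.70 and 9.95 CPM in LCS and 7.24, 5.90 and 6.22 CPM in WT. The groups were separate by a small margin, between LCS replicate 2 and WT replicate 1. Its log2 fold change was 0.44 (SE 0.19, edgeR adjusted p = 0.189).

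C1qc was at 5.07, 5.95 and 6.00 CPM in LCS and 5.97, 2.47 and 2.43 CPM in WT. WT replicate 1 lay among the LCS libraries and the other two WT libraries lay far below. The log2 fold change was 0.64 (SE 0.34, edgeR adjusted p = 0.277), and without WT replicate 1 it was 1.21 (edgeR adjusted p = 0.00604). C1qa had 4.17, 4.03 and 5.05 counts per C1qb count in LCS and 3.62, 3.64 and 3.28 in WT, which did not overlap. Per C1qc count the range was 5.22 to 8.38 in LCS and 4.39 to 8.71 in WT, which did.

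Promoter windows of C1qb and C1qc are shown because these chains are parts of 1 protein and both had positive fold changes. Each runs from 250 bases before the start of the gene to 50 bases after it, on the minus strand of RefSeq GRCm38.p6, and capitals mark GAGGAA on either strand, the core bound by PU.1, a transcription factor of myeloid cells.
C1qb, chr4:136886151-136886450: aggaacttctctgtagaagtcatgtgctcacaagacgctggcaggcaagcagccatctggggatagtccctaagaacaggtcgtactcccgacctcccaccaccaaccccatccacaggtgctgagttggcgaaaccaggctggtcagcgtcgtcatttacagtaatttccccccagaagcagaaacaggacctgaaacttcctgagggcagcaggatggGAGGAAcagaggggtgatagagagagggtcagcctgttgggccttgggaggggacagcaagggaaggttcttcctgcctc
C1qc, chr4:136892865-136893164: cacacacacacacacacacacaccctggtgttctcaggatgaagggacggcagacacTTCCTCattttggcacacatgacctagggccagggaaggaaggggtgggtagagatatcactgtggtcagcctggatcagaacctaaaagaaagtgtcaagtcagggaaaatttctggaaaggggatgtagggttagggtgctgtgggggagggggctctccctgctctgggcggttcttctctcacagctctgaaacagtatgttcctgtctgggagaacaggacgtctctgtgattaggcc
Each window held 1 match, as did 28.3% of all 32851 windows of 300 bases (1 or more matches). Among the other windows searched, Mrc1 held 3 matches, Cd68 held 2, and Lyz1 and Lyz2 held none of these letters. TATAAA, searched on both strands, was in 13.6% of all windows and in none of these 6. Such a match is a description of the letters and not a binding site.

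Cd68, Csf1r and Mrc1 did not pass the test. Cd68 was at 10.9, 12.5 and 15.1 CPM in LCS and 14.8, 10.9 and 13.6 CPM in WT, so both groups spanned nearly the same range (log2 fold change -0.03, SE 0.19, edgeR adjusted p = 0.935). Csf1r, the receptor for the macrophage growth factors CSF1 and IL-34, was at 3.64, 2.47 and 2.11 CPM in LCS and 2.60, 2.84 and 3.71 CPM in WT. Its groups overlapped too (log2 fold change -0.16, SE 0.28, edgeR adjusted p = 0.758). Mrc1 had 3, 19 and 22 raw counts in LCS and 24, 26 and 12 in WT, and a difference was not detectable at this depth (log2 fold change -0.29, SE 0.60, edgeR adjusted p = 0.789). The log2 fold changes of Cd68, Csf1r and Mrc1 changed sign when single libraries were left out.

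Ratios of raw counts within a library do not depend on how libraries are scaled. Lyz2 had 4.61, 6.34 and 4.76 counts per Csf1r count in LCS and 1.96, 2.06 and 1.15 in WT. Clec4n had 0.577, 1.25 and 1.02 counts per Csf1r count in LCS and 0.296, 0.270 and 0.197 in WT. Both ratios were higher in every LCS library than in any WT library. The same held against Cd68, with 1.54, 1.25 and 0.662 Lyz2 counts per Cd68 count in LCS and 0.344, 0.536 and 0.314 in WT. C1qa had 3.30, 2.48 and 3.32 counts per Cd68 count in LCS and 1.77, 1.97 and 1.496 in WT, again without overlap. Against Csf1r it overlapped, with 9.91, 12.5 and 23.9 C1qa counts per Csf1r count in LCS and 10.09, 7.57 and 5.50 in WT. Lyz2 per C1qa count overlapped too, at 0.465, 0.505 and 0.199 in LCS and 0.194, 0.272 and 0.210 in WT. Cd68 per Csf1r count overlapped, at 3.00 to 7.18 in LCS and 3.68 to 5.70 in WT. The coding transcript of Csf1r has 4701 nt, and those of Lyz2 and Clec4n have 1316 and 1229 nt. Over all protein-coding genes tested, the median log2 fold change was 0.37 from 1000 to 2000 nt and -0.23 beyond 4000 nt. The part of length in the ratios to Csf1r was not tested. How often ratios of other gene pairs separate the groups was not counted.

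**Figure D3:**
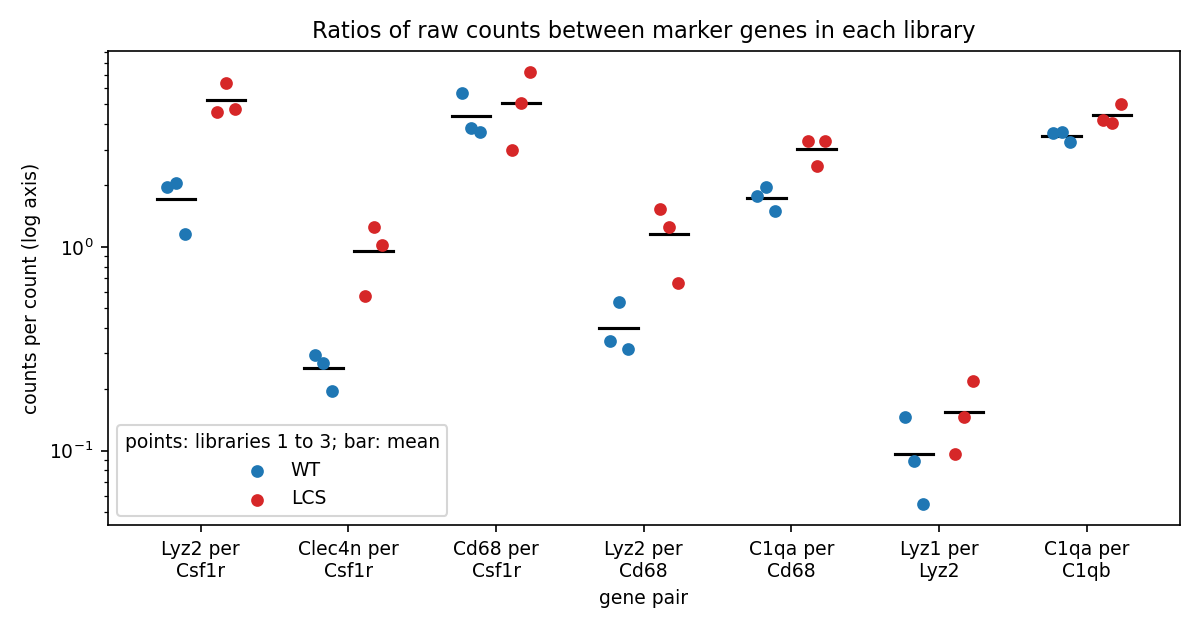
Raw counts of 1 gene per count of another (log axis) by library; blue points stand for WT, red points for LCS and bars for the mean of 3 libraries. Lyz2 per Csf1r lies at 4.61 to 6.34 in LCS and 1.15 to 2.06 in WT, while Cd68 per Csf1r and Lyz1 per Lyz2 overlap. Csf1r has a longer coding transcript than the genes set against it.

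The order of levels between genes was read per length, as CPM per kilobase of the longest coding transcript. In LCS it ran from C1qa (37.6 ± 9.57, SD, n = 3) through Lyz2 (10.8 ± 2.75), Cd68 (10.4 ± 1.73), C1qb (8.05 ± 1.04), C1qc (4.71 ± 0.435), Clec4n (1.99 ± 0.463), Lyz1 (1.61 ± 0.296) and Csf1r (0.583 ± 0.170) to Mrc1 (0.0732 ± 0.0556). Libraries of Lyz2, Cd68 and C1qb overlapped with one another, as did those of Clec4n and Lyz1. In WT the order was C1qa (21.8 ± 2.97), Cd68 (10.7 ± 1.63), C1qb (5.93 ± 0.642), Lyz2 (3.86 ± 0.594), C1qc (3.01 ± 1.69), Csf1r (0.649 ± 0.124), Clec4n (0.614 ± 0.0168), Lyz1 (0.396 ± 0.204) and Mrc1 (0.0902 ± 0.0306). Lyz2 and C1qc, Csf1r and Clec4n, and Csf1r and Lyz1 overlapped there. By its mean Lyz2 stood above Cd68 and C1qb in LCS, but in LCS replicate 3 it was below both, at 7.61 beside 12.29 and 9.15 CPM per kilobase. Mrc1, the stromal marker, was lowest in both groups.

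The growth factors that act on Csf1r did not pass the test. Csf1 was at 22.8, 17.8 and 28.3 CPM in LCS and 27.2, 25.0 and 18.8 CPM in WT (log2 fold change -0.05, SE 0.21, edgeR adjusted p = 0.905). Il34 was at 0.734, 0.687 and 0.415 CPM in LCS and 1.25, 0.444 and 0.575 CPM in WT (log2 fold change -0.31, SE 0.47, edgeR adjusted p = 0.716). Libraries of both groups overlapped for each.

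A wider set of 103 other macrophage and myeloid genes, in 8 lists, was read beside the markers, and 90 of them passed the low-count filter. None was called by edgeR in either direction; at an unadjusted p below 0.05, 14 of the 90 lay higher and 8 lower, where 13.3% and 10.8% of all genes tested did. The DESeq2 Wald test called 4 of the 90 higher and 3 lower, beside 937 and 571 of all 14539 genes. Without WT replicate 1, edgeR called 13 of 91 higher and 4 lower, beside 1857 and 1142 of all 14861 genes tested in that fit. Groups did not overlap for 13 of the 90 higher in LCS and 9 lower, beside 14.6% and 12.0% of all genes tested. The median log2 fold change of the 90 was 0.15, and 53 of them lay above 0. With the length offset described below, the median over 89 of the 90 was -0.06.

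Among surface proteins of macrophages, 15 of 22 genes passed the filter, with a median log2 fold change of -0.01. Itgax, the integrin CD11c that islet macrophages carry, was at 1.19 to 1.85 CPM in LCS and 2.71 to 3.47 CPM in WT (log2 fold change -1.01, SE 0.27, edgeR adjusted p = 0.0775). Trem2, a lipid-sensing receptor of phagocytes, lay the other way, at 1.26 to 1.99 CPM in LCS and 0.418 to 0.894 CPM in WT (1.36, SE 0.38, edgeR adjusted p = 0.0876). Neither gene's groups overlapped. The hyaluronan receptor gene Lyve1 (-0.48) and the Fc receptor gene Fcgr1 (-0.92) had edgeR adjusted p of 0.132 and 0.149. Adgre1, which encodes the macrophage antigen F4/80 and was picked after its values were seen, was at 0.861 to 1.65 CPM in LCS and 1.80 to 2.06 CPM in WT (-0.62, edgeR adjusted p = 0.257). Folr2, Timd4, Clec10a and Ccr2 fell below the filter, and Vsig4, Cd209f and Cd209g had 0 counts in all libraries.

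Signalling and transcription genes of myeloid cells had a median log2 fold change of 0.38 over 19 genes, with 16 above 0 and none called. The adaptor gene Tyrobp was at 0.54, the tetraspanin gene Cd53 at 0.54 and the actin regulator gene Coro1a at 0.56, with edgeR adjusted p of 0.163, 0.176 and 0.198. Ptprc, the leukocyte antigen CD45, had 2.04 to 3.60 CPM in LCS and 3.43 to 4.81 CPM in WT (-0.44, edgeR adjusted p = 0.346). Fcer1g, the signalling chain that dectin-2 pairs with, had 3.41 to 5.30 CPM in LCS and 3.55 to 4.22 CPM in WT (0.24, edgeR adjusted p = 0.559). Ptprc and Fcer1g were named after their values were seen.

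Genes of the phagocyte lysosome and oxidase had a median of -0.01 over 13 genes. Mpeg1, the pore-forming perforin-2, was at 12.4 to 20.1 CPM in LCS and 21.9 to 38.7 CPM in WT (-0.80, SE 0.24), and the protease gene Ctss at 12.3 to 13.7 and 15.99 to 20.01 CPM (-0.48, SE 0.15). The oxidase subunit gene Cyba (1.02) and the lipoprotein gene Apoe (0.49) lay above 0. The edgeR adjusted p of Mpeg1, Ctss, Cyba and Apoe was 0.102, 0.114, 0.115 and 0.121, and their groups did not overlap. These were 2 genes higher and 2 lower of 13, beside 14.6% and 12.0% of all genes tested. With the length offset described below, Mpeg1, Ctss, Cyba and Apoe were at -0.68, -0.95, 0.23 and 0.07.

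Among complement genes beyond C1q, 15 of 16 found in the table were tested, with a median of -0.25. The regulator genes Cd46 (-2.13) and Cd59a (0.43) and the component gene C4a (-1.08), which has a near-identical copy and is uncertain, had edgeR adjusted p of 0.126, 0.223 and 0.207. Of the Fc and C-type lectin receptors 8 of 11 were tested, with a median of 0.15. Clec7a, the beta-glucan receptor dectin-1, was at 2.97 to 5.73 CPM in LCS and 2.25 to 2.27 CPM in WT (0.99, SE 0.27, edgeR adjusted p = 0.0854). Clec4e, known as Mincle, had 10 to 58 raw counts in LCS and 6 to 10 in WT (1.66, SE 0.60, edgeR adjusted p = 0.144). Fcgr2b (0.45) and Clec4a3 (-0.70) had edgeR adjusted p of 0.404 and 0.449.

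The 7 MHC class II genes had a median of 0.34. H2-Eb1 (0.53), H2-Ab1 (0.44), Cd74 (0.34) and Ciita (0.58) had edgeR adjusted p of 0.199, 0.347, 0.423 and 0.51. Of 13 cytokine and chemokine genes that macrophages make, 11 were tested, with a median of 0.73. Il1b was at 5.59 to 6.95 CPM in LCS and 3.14 to 3.87 CPM in WT, without overlap (0.89, SE 0.20, edgeR adjusted p = 0.0552). It was called by limma-voom (adjusted p = 0.0498) and by the DESeq2 Wald test (adjusted p = 0.00443). With the length offset described below, Il1b was at 0.43 and was not called (edgeR adjusted p = 0.336). Leaving out each library gave an edgeR adjusted p of 0.024 to 0.19. Il6 (0.73), Ccl2 (0.61) and Ccl3 (1.10) had edgeR adjusted p of 0.166, 0.229 and 0.25. Ccl3 had only 13, 56 and 17 raw counts in LCS and 7, 15 and 19 in WT. Of the 11 tested genes 9 lay above 0. Igf1 (-1.27) and Ccl4 (-0.54) lay below it, with edgeR adjusted p of 0.282 and 0.597.

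**Figure D4:**
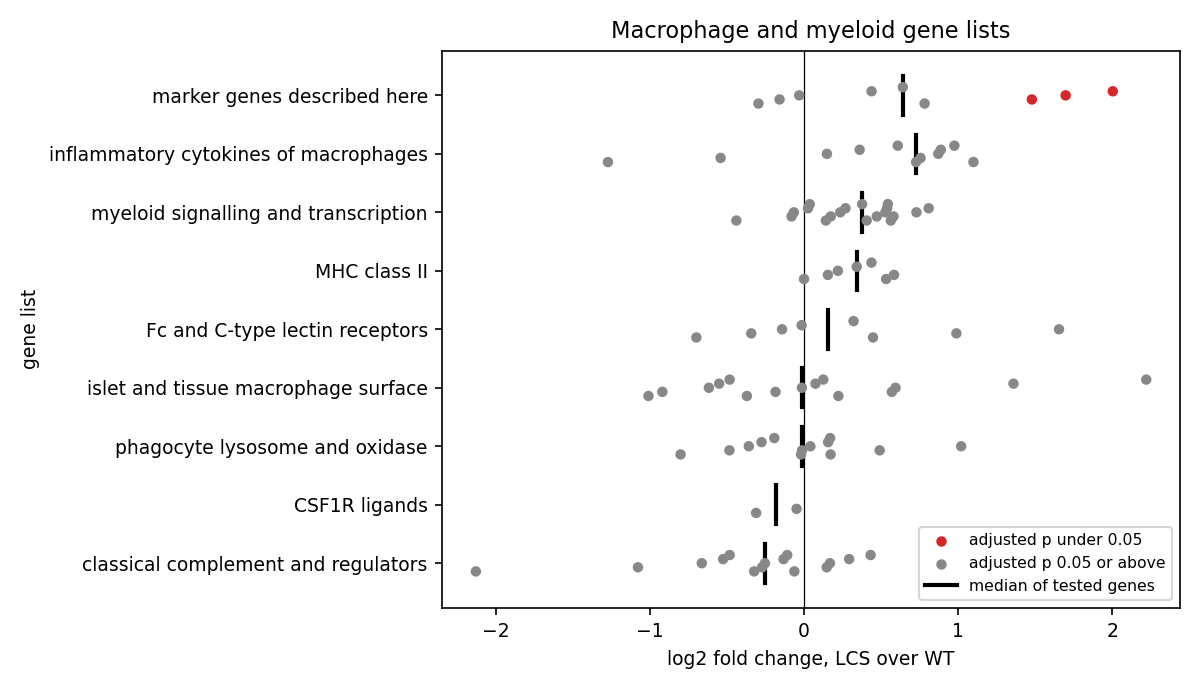
Log2 fold change (LCS over WT) of each tested gene in the marker set and 8 macrophage and myeloid lists, where red points passed the edgeR threshold of 0.05, grey points did not, and a vertical bar marks the median of the tested genes. The red points are Lyz1, Lyz2 and Clec4n, and list medians run from -0.25 for complement to 0.73 for cytokines.

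Transcript length moved with these values. Of the 99 tested macrophage genes, markers included, 98 had a coding transcript in GENCODE M21. Genes up to 1000 nt had a median log2 fold change of 0.58, with 7 of 8 above 0. The median was 0.44 from 1000 to 2000 nt (30 of 37 above 0), 0.13 from 2000 to 4000 nt (18 of 31) and -0.24 beyond 4000 nt (4 of 22). All protein-coding genes tested gave medians of 0.75, 0.37, 0.03 and -0.23 in the same classes. Lyz1, Lyz2, Clec4n, Cd68 and the C1q chains have coding transcripts of 1040 to 1316 nt, and Csf1r and Mrc1 of 4701 and 5374 nt.

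With an offset for the length of the longest coding transcript the log2 fold changes were 1.04 (SE 0.25) for Lyz2, 1.55 (SE 0.38) for Lyz1 and 1.21 (SE 0.32) for Clec4n, and none was called (edgeR adjusted p = 0.147, 0.147 and 0.168). C1qa was then at 0.16, C1qb at -0.15, C1qc at 0.17, Cd68 at -0.54, Csf1r at 0.00 and Mrc1 at -0.06. With an offset for the median length of a gene's transcripts, Lyz2 kept its call (log2 1.38, edgeR adjusted p = 0.0388), while Lyz1 (1.90, 0.0692) and Clec4n (1.56, 0.0577) did not. Over all protein-coding genes these offsets left 26 and 66 genes called higher.

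**Figure D5:**
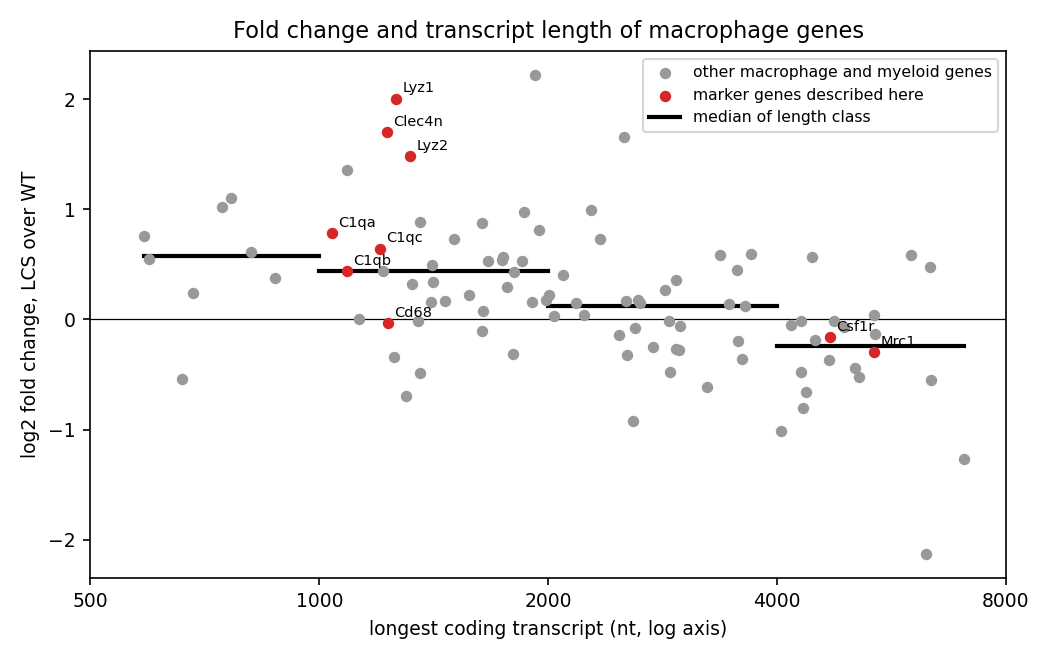
Log2 fold change (LCS over WT) against the length of the longest coding transcript (nt, log axis) for 98 macrophage genes, marker genes in red, and horizontal lines at the medians of the 4 length classes. These medians run from 0.58 up to 1000 nt to -0.24 beyond 4000 nt, and Lyz1, Lyz2 and Clec4n lie above the 0.44 of their class.

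Markers of other cells were read beside these results. Acinar genes moved in the same direction, with 12 of 13 tested members called higher, a median log2 fold change of 2.05, and a summed level of 537 to 920.4 CPM in LCS and 182 to 271 CPM in WT. Try5 (2.72) and Prss2 (2.203), which encode trypsinogens, Cela1 (2.05), an elastase, and Klk1 (2.44), a kallikrein, had edgeR adjusted p of 0.000589, 0.00203, 0.00123 and 0.00107. Their part in the lysozyme and Clec4n values was not tested. Of 6 Paneth cell markers 5 had 0 counts in every library. The other, Mmp7, had 31, 44 and 3 raw counts in LCS and 136, 10 and 43 in WT, and was not called (edgeR adjusted p = 0.465). Of 10 neutrophil genes found, Mpo, Ngp and Retnlg had 0 counts and 3 were tested, with none called. Their summed level, 38.9 to 60.4 CPM in LCS and 27.6 to 55.8 CPM in WT, was nearly all Lcn2, at 37.4 to 58.6 and 26.7 to 53.5 CPM, while every other gene of the list was below 1 CPM in each library.

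The summed level of 8 dendritic cell genes was 2.75 to 3.73 CPM in LCS and 1.60 to 2.61 CPM in WT, with 0 of 4 tested called. Ccr7, the homing receptor of migrating dendritic cells, was at 1.34 to 1.65 CPM in LCS and 0.416 to 0.715 CPM in WT (1.28, SE 0.35, edgeR adjusted p = 0.0837). The other tested genes of this list were Siglech (0.74), Xcr1 (-0.04) and Zbtb46 (-0.28), and the groups overlapped for each. Their edgeR adjusted p was 0.542, 0.968 and 0.740. B and plasma cell genes summed to 30.5 to 73.1 CPM in LCS and 9.60 to 29.7 CPM in WT, with 0 of 7 called; Jchain, the joining chain of secreted antibodies, had a log2 fold change of 2.04 (SE 0.58, edgeR adjusted p = 0.0907). The sums of T and NK cell genes were 5.42 to 7.91 and 3.66 to 5.45 CPM, of endothelial genes 196 to 225 and 163 to 195 CPM, of lymphatic endothelial genes 30.7 to 40.5 and 39.5 to 41.4 CPM, of fibroblast and stellate genes 33.3 to 64.3 and 31.8 to 101.8 CPM, of mast cell genes 3.92 to 6.08 and 4.49 to 6.72 CPM, and of duct genes 528 to 644.6 and 320.02 to 627 CPM, in LCS and WT in turn. No member of these 6 lists was called. As a check of tissue, beta cell genes summed to 175028 to 263584 CPM in LCS and 147693 to 171944 CPM in WT, beside 81.2 to 98.5 and 51.4 to 63.9 CPM for the 9 macrophage markers. Of 7 alpha, delta and PP cell genes, 1 was called, the pancreatic polypeptide gene Ppy (1.86, SE 0.30, edgeR adjusted p = 0.0172).

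Genes whose level most resembled that of C1q were ranked by Pearson's r over the 6 libraries with the mean log2 CPM of its 3 chains, among 12551 genes at a mean of 1 CPM or more. The nearest were Sertad1 (r = 0.999), Dlk1 (0.998), Nkx2-3 (0.997), P2rx4 (0.997) and Bdh1 (0.997), and none of these is in the macrophage lists. These values are a description with no test, over 6 libraries of both genotypes and of unequal depth. Of those lists, Cyba was at 0.992 and Apoe at 0.983. Csf1r was at -0.571, Mpeg1 at -0.954 and Ptprc at -0.859. All of the 5 nearest genes were, like C1qa, C1qb and C1qc, lower in WT replicates 2 and 3 than in the other 4 libraries. None of these 5 was called (edgeR adjusted p of 0.113 to 0.291).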

How the data were processed

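Islet messenger RNA was counted in 3 LCS and 3 WT libraries. The authors deposited raw counts per gene in 1 table, not normalised. Per the submitters' processing notes, HTSeq 0.9.0, TopHat2 2.1.1, Bowtie2 2.2.9, FastQC and bcl2fastq 2.20 were used with the mm9 build, and no role is stated for any of them. Neither annotation nor strand setting is known here, and reads of overlapping or antisense genes cannot be told apart. Group names follow the labels, with replicate numbers assigned by accession. Libraries of a group are separate pools. The p-values set the difference between groups against the spread between pools, which was estimated in part over all genes.

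Testing used edgeR 4.0.16 (R 4.3.3) over all genes. The steps were filterByExpr, TMM scaling, a quasi-likelihood fit with genotype as the only term, Benjamini-Hochberg adjustment and a threshold of 0.05. The common biological coefficient of variation was 21.2%. Depth was 26123654 to 68036676 counts per library. The steps were tested on simulated counts. DESeq2 1.42.0 and limma 3.58.1 (voom) served as alternatives, beside other scalings and filters, left-out libraries and length offsets (loess, span 0.5). Figures were drawn with matplotlib 3.10.9.

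The marker genes and all lists were chosen with earlier results of these data known. Named genes were the 9 markers, genes called in a list or up to 4 of its members with the smallest p, and the 5 genes most like C1q over libraries. Some genes that this rule names are not reported here. Gene lengths came from GENCODE M21, matched by gene number, and were used with no coordinates, since its build is not mm9.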

Additional observations from a re-analysis of the deposited data

How the results depend on the processing

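The direction of Lyz1, Lyz2, Clec4n, C1qa and C1qc was the same in all alternatives run. The number of markers called higher was 3; it was 1 at a minimum of 10 CPM in 3 libraries, where 3 markers were tested, 0 with the length offset and 1 with the median-length offset, which was added with the data in view. Leaving out each library gave 0 to 5. No marker was called lower in any alternative. Of the other macrophage genes, 4 were called higher and 3 lower by the DESeq2 Wald test, 1 higher by limma-voom, 1 higher without the low-count filter, and 5 higher and 1 lower with WT replicates 1 and 2 left out together; leaving out each library gave 0 to 13 higher and 0 to 4 lower. Over all genes, 300 higher and 21 lower became 937 and 571 with the DESeq2 Wald test, 560 and 126 without the low-count filter, 884 and 331 with WT replicates 1 and 2 left out together, 26 and 5 with the length offset, and 66 and 6 with the median-length offset; leaving out each library gave 81 to 1857 and 1 to 1142. Of all calls 93.5% were higher, and 62.1% with the DESeq2 Wald test. The log2 ratio of the summed marker share, 0.49 outside the ribosomal rows, was -0.42 over all counts. The cause of these changes was not tested.

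Some uncalled genes changed sign. With the length offset C1qb was at -0.15, Tyrobp -0.42, Fcer1g -0.60, H2-Ab1 -0.0611, Cd74 -0.0907, Ccl2 -0.17 and Csf1 0.0831; with the median-length offset Csf1 was at 0.0022. At the 10 CPM minimum Cd68 was at 0.0271 and Csf1 at 0.0129. With WT replicates 1 and 2 left out together Mrc1 was at 0.33, Il34 at 0.10 and Csf1 at 0.28. Leaving out each library gave -0.15 to 0.10 for Cd68, -0.38 to 0.0055 for Csf1r, -0.91 to 0.15 for Mrc1, -0.58 to 0.27 for Il34, -0.22 to 0.14 for Csf1 and -0.0493 to 0.89 for Ciita. No paired analysis was possible because the labels give the groups no shared replicate numbers. Mrc1 had 3 to 26 counts per library, and its SE of 0.60 was the widest of the 9 markers.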
